A study of Mus musculus with 8 samples.

Results

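The genes described here carry the names of the translation initiation factors of the mouse, and some of them encode other proteins. They are every gene symbol in the deposited expression files that starts with Eif followed by a digit from 1 to 6. The symbols numbered 58 of the 23235 in the files, and 56 of them passed a filter on low values that kept 15899 genes. The study sequenced RNA from spermatocytes, the male germ cells in meiosis, of wild-type (WT) mice and of mice that lacked Cnot4 in germ cells (Cnot4-null). CNOT4 is an E3 ubiquitin ligase that associates with the CCR4-NOT complex, which shortens mRNA poly(A) tails. The Cnot4-null genotype was Cnot4 fl/fl;Stra8-Cre, in which Cre is expressed in male germ cells around their entry into meiosis. Every mouse was on the C57BL/6 strain, and per the study's methods the cells came from 6-week-old males. Spermatocytes were labelled LZ (leptotene and zygotene, the early steps of meiotic prophase) or PD (pachytene and diplotene, the later steps), which gave 4 groups of 2 libraries each. Levels were deposited as FPKM, the sequenced fragments of a transcript divided by its length and by the mapped reads of the library, and the files themselves hold no read counts. A level in FPKM is scaled to transcript length, so levels of different genes can be set side by side, though less so for genes with near copies in the genome, where reads that map to more than 1 place are lost.

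Translation initiation starts when a ternary complex of eIF2, GTP and initiator tRNA joins the small ribosomal subunit together with eIF1, eIF1A, eIF3 and eIF5, and the exchange factor eIF2B recharges eIF2 with GTP after each cycle. The mRNA is recruited through its cap by eIF4E, held by the scaffold eIF4G and unwound by the helicase eIF4A, while eIF4E-binding proteins compete with eIF4G for eIF4E. In meiotic prophase of the male the X and Y chromosomes are silenced at pachytene, and several genes with X-linked copies, including some for initiation factors, have autosomal copies that are active in germ cells.

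Cnot4 itself read 36.0 and 34.9 FPKM at LZ in WT and 43.2 and 34.6 at LZ in Cnot4-null. At PD the gene read 76.6 and 73.1 FPKM in WT and 65.9 and 53.5 in Cnot4-null. Its level was thus higher at PD than at LZ in each genotype, and at LZ the genotypes overlapped. A deletion of part of the gene cannot be seen in 1 level for the whole gene, so the level checks neither the genotype nor the labels.

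The stage labels were checked against marker genes of the cell types that a testis sort can hold. The 8 markers of pachytene and diplotene cells summed to 264, 381, 282 and 125 FPKM in the LZ libraries (WT, then Cnot4-null), against 12837 and 11961 for WT and 5832 and 2065 for Cnot4-null at PD. The highest mean over all libraries among them was that of Ldhc, a lactate dehydrogenase of germ cells. All PD libraries were thus far above all LZ libraries, and both Cnot4-null PD libraries were below both WT PD libraries. The leptotene and zygotene list (7 of its 8 genes were in the files; Sycp3, of the synaptonemal complex, had the highest mean over the 8 libraries) summed to 2026 and 2348 (WT) or 3769 and 2272 (Cnot4-null) at LZ. At PD the sums were 1022 and 1058 (WT) or 1017 and 700.2 (Cnot4-null). Gene by gene, 4 of the 7 (Dazl, Dmc1, Prdm9 and Stra8) were called higher in Cnot4-null at PD and 2 (Hormad1 and Sycp3) lower, and the list's median difference was 1.31 against 0.66 for all genes. Stra8, for example, read 228 and 149 FPKM against 8.70 and 6.47 in WT.

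The Cnot4-null PD libraries also held RNA of genes that mark other cells. All 6 Leydig cell markers were above 1 FPKM in both, and their sums were 10073 and 22274 FPKM, against 116 and 7.07 in WT PD and at most 19.0 in any LZ library. Insl3, a hormone of Leydig cells, was the most abundant at 9669 and 21608 FPKM, while in the second WT PD library Cyp17a1, Cyp11a1 and Hsd3b6 were at 0. The 5 round spermatid markers, led in Cnot4-null PD by the protamine gene Prm1, summed to 15665 and 7045 in Cnot4-null PD and 397 and 248 in WT PD. The 6 spermatogonial markers summed to 307 and 407 against 63.4 and 79.0, with Uchl1 at 202 and 232 against 10.9 and 6.22, while Id4 went the other way, at 35.4 and 22.8 against 49.3 and 70.9. For Sertoli cells (7 of 8 genes in the files), the sums were 118 and 210 against 17.1 and 53.2, with Clu at 94.6 and 196 against 8.06 and 15.3 and Cst12 at 18.6 and 4.42 against 8.24 and 36.7, and Amh was at 0 in both WT libraries and the first Cnot4-null one. The 3 markers of peritubular myoid cells, led in Cnot4-null by Acta2, summed to 58.7 and 271 against 3.68 and 2.33, and the macrophage list (5 of 6 genes, led in Cnot4-null by Lyz2) to 16.2 and 57.2 against 2.2 and 2.82. Endothelial markers reached 5.44 FPKM in the second Cnot4-null PD library, and both haemoglobin genes were at 0 in every library. In the LZ libraries (WT 1 and 2, then Cnot4-null 1 and 2) the sums were 17.2, 9.89, 10.8 and 19.0 for Leydig cells, 1825, 1493, 4025 and 701 for round spermatids, 648, 616, 418 and 579 for spermatogonia and 159, 145, 14.9 and 18.7 for Sertoli cells. The macrophage list summed to 20.4, 1.03, 5.24 and 4.26 there, so WT LZ 1 was above the first Cnot4-null PD library. Per the study, cells were sorted by Hoechst and propidium iodide staining, and the sorted populations were checked by immunofluorescence for SYCP3 and phosphorylated H2AX. Whether the marker RNA came from whole cells of these types, and its part in the results at PD, was not tested. In such bulk samples fewer cells of a type and less RNA per cell cannot be told apart.

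**Figure D1:**
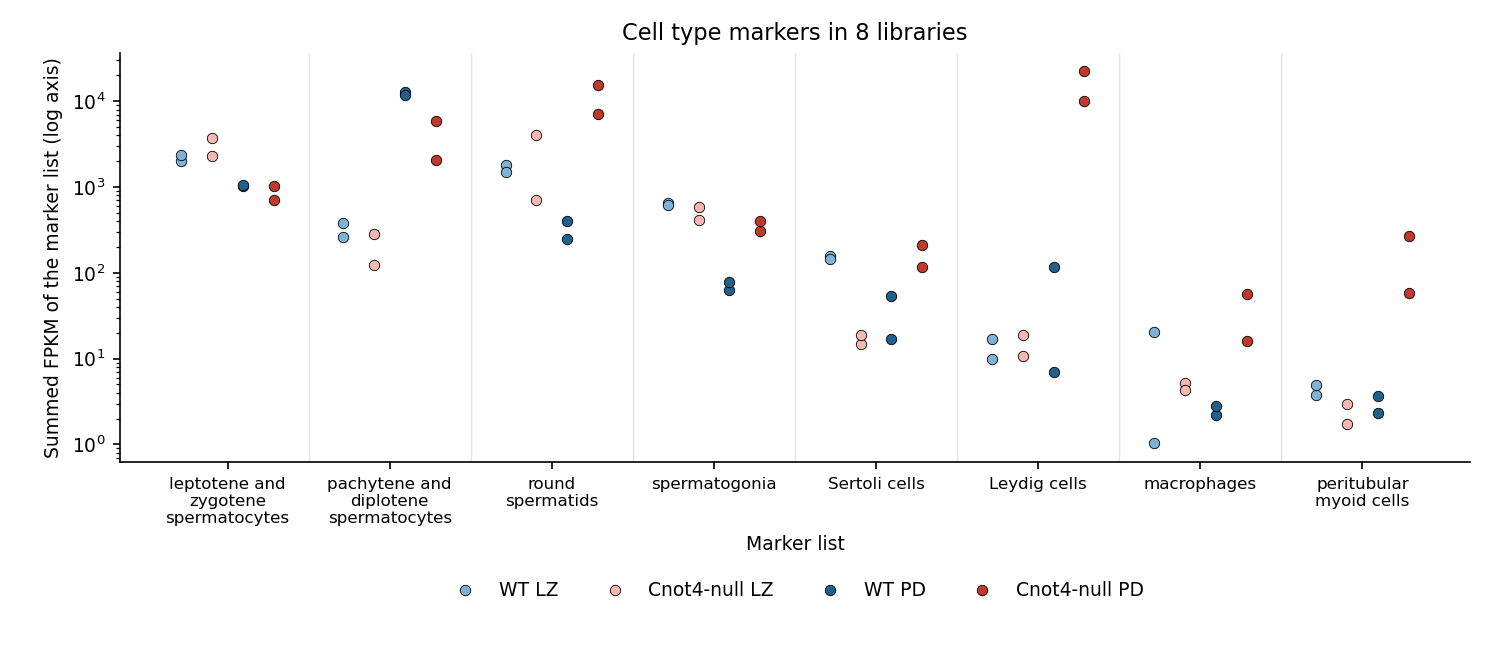
Summed level of the marker genes of 8 cell types (horizontal axis) in FPKM on a log axis, with 1 point per library coloured by genotype and stage. Leydig cell markers reach 10073 and 22274 FPKM in Cnot4-null PD, against 116 and 7.07 in WT PD.

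The members' mRNAs were abundant in spermatocytes, with a median over the 58 members of 81.5 and 76.4 FPKM in WT LZ against 5.57 and 5.69 over all kept genes. In WT PD the members' median was 40.9 and 37.1 FPKM, against 3.05 and 3.04 over all kept genes. In Cnot4-null PD it was 53.1 and 44.5, against 8.09 and 8.43. Summed over the 58 symbols, they made up 0.989% and 1.07% of all FPKM at LZ in WT and 0.986% and 1.05% at LZ without Cnot4. The PD shares were 0.731% and 0.693% (WT) or 0.766% and 0.735% (Cnot4-null), below every LZ library. The number of members above 1 FPKM was 54 and 55 (WT) or 55 and 56 (Cnot4-null) at LZ, and 50 and 51 (WT) or 56 and 56 (Cnot4-null) at PD. Over all genes that number was 11734 and 11823 (WT) or 11822 and 11538 (Cnot4-null) at LZ. At PD it was 10103 and 10076 (WT) or 13887 and 14249 (Cnot4-null). The highest level in WT LZ belonged to Eif5a, whose protein eIF5A acts mainly in elongation and termination, at 838 and 803 FPKM in WT LZ. Both members that failed the filter are listed at or near 0: Eif4e1b, an oocyte form of eIF4E, read 0 in all 8 libraries, and Eif3j, a loosely bound eIF3 subunit, read at most 0.0199 FPKM. Some symbols carry the Eif name but are other proteins: Eif2c1 to Eif2c4 are older names of the Argonaute genes, and Eif2ak1 to Eif2ak4 encode the kinases that phosphorylate eIF2. Eif1ad, Eif2a and Eif2d are also other proteins with the name, though they were grouped with eIF1 and eIF2.

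Changes were measured as differences of log2(FPKM + 1) between group means, a scale that understates changes of genes near or below 1 FPKM. A gene was called when limma, fitted over all kept genes, gave an adjusted p below 0.05. With 2 libraries in a group, the p-values rest on the spread between these libraries, which the study calls biological replicates. In WT, 25 of the 56 members were called lower at PD than at LZ, beside 36.2% of all genes, and 2 were called higher, Eif4g3 and Eif1a, beside 21.6% of all genes. The members' median change was -0.42, against -0.32 for all genes. These counts moved with the scaling of the libraries: with quantile normalization 32 members were called lower and 3 higher (30.3% and 25.8% of all genes), with median-ratio scaling 21 and 14 (29.7% and 27.9%), and with every library set to the same median 17 and 24 (26.9% and 32.5%). Of the 25 members called lower, 17 were also called lower under each of those scalings and without each single library, and both members called higher passed in the same way. The share of all genes that passed in the same way was not computed for this or the later comparisons. The members' median was -0.70, 0.12 and 0.46 under these scalings, against -0.06, -0.05 and 0.05 for all genes, so its sign depended on the scaling. Without the eIF4E-binding proteins, eIF2 kinases, Argonautes, eIF5A genes and the other proteins with the name, 39 initiation factor subunits remained. With the FPKM as deposited, 14 of them were called lower (35.9%) and 2 higher (5.13%), with a median change of -0.19.

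In WT the mRNAs for the cap-binding complex changed in their proportions. Eif4g1, the main eIF4G scaffold, on mm9 at chr16:20668386-20692957, read 30.3 and 19.6 FPKM in WT LZ and 1.80 and 1.88 in WT PD. Eif4g3, its paralog known to be needed for meiosis in males, read 24.7 and 20.4 in WT LZ and 55.4 and 51.3 in WT PD. The first gene was low in both PD libraries and the second high in both, with no overlap between the stages. The change of Eif4g1 was -3.16 on the log2 scale (SE 0.26, adjusted p = 6.29e-05), or -2.84 relative to the median of all genes. Eif4g3 changed by 1.21 (SE 0.19, adjusted p = 0.00119), or 1.53 relative to that median. Eif4g2, which encodes a scaffold without the eIF4E-binding part, read 118 and 124 FPKM in WT LZ and 86.7 and 101 in WT PD. Its change of -0.36 was not called, but it was called at that value with no filter and at -0.76 under quantile normalization. Under the same-median scaling it was called with the other sign, at 0.52. Out of the summed FPKM of these 3 genes, Eif4g1 made up 17.5% and 11.9% in WT LZ but 1.25% and 1.21% in WT PD, and Eif4g3 went from 14.3% and 12.4% to 38.5% and 33.2%.

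The eIF4A helicase genes also differed from each other in WT. Eif4a1, the main helicase gene of proliferating cells, at chr11:69480438-69485925, read 321 and 335 FPKM in WT LZ and 38.0 and 33.5 in WT PD. Eif4a2, which encodes a nearly identical helicase, read 113 and 101 in WT LZ and 129 and 142 in WT PD. Eif4a1 was thus far lower in both PD libraries, while Eif4a2 was somewhat higher in both. The change of Eif4a1 was -3.16 (SE 0.18, adjusted p = 2.24e-05), and that of Eif4a2 was 0.34 (SE 0.19, adjusted p = 0.178), which was not called. It turned to -0.14 with quantile normalization, and was called higher under the same-median (1.22) and median-ratio (0.88) scalings. The share of Eif4a1 in their sum went from 73.9% and 76.9% at LZ to 22.8% and 19.1% at PD, and both genes have near copies in the genome, whose part in the share was not tested. Eif4a3, whose protein is a helicase of the exon junction complex and not of cap binding, read 292 and 275 FPKM in WT LZ and 102 and 81.7 in WT PD and fell by 1.62 (SE 0.19, adjusted p = 0.000307). Eif4b, a cofactor of the helicase, went from 37.1 and 30.5 FPKM to 15.2 in both PD libraries, a change of -1.10 that was not called under the same-median scaling. Eif4h, a related cofactor, read between 54.9 and 73.7 FPKM across all 8 libraries and was not called in any contrast. With the same-median scaling it was called in the WT stage change (1.08), the Cnot4-null one (-0.67), the genotype difference at PD (-1.46) and the interaction (-1.74), and with median-ratio scaling in the WT stage change (0.74) and at PD (-0.49).

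The main cap-binding protein genes were not called in WT, whereas the genes for their inhibitors fell. Eif4e, the main cap-binding protein, read 77.8 and 96.9 FPKM in WT LZ and 87.3 and 95.1 in WT PD. Eif4e2, whose protein (4EHP) binds the cap but not eIF4G, read 88.0 and 91.4 in WT LZ and 77.7 and 72.6 in WT PD. Their changes of 0.07 and -0.25 depended on the scaling in sign and call: Eif4e was called higher under the same-median (0.95) and median-ratio (0.61) scalings, and Eif4e2 lower with quantile normalization (-0.59). Eif4e3, a less studied cap-binding paralog, was near the lower limit in WT, at 0.472 and 0.701 FPKM at LZ and 0.166 and 0.152 at PD. Eif4ebp1, which encodes the inhibitor 4E-BP1 that mTOR phosphorylates, at chr8:28370799-28386128, read 130 and 109 FPKM in WT LZ and 3.79 and 2.72 in WT PD. Both PD libraries were far below both LZ libraries, and the log2 change was -4.83 (SE 0.26, adjusted p = 2e-05). Set against Eif4e, the FPKM ratio of Eif4ebp1 was 1.67 and 1.13 at LZ and 0.0434 and 0.0286 at PD.

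The other genes for eIF4E-binding proteins were also lower at PD in WT. Eif4ebp2 read 15.5 and 10.4 FPKM in WT LZ and 3.64 and 3.04 in WT PD, a change of -1.67 (SE 0.44, adjusted p = 0.0138). That call was lost under all 3 other scalings and without WT LZ 1, WT PD 1 or WT PD 2, where the change was -1.40, -1.77 and -1.57. Eif4ebp3, at 93.6 and 90.6 FPKM in WT LZ and 27.7 and 26.8 in WT PD, fell by 1.72 (SE 0.25, adjusted p = 0.000755). Eif4enif1 encodes 4E-T, which carries eIF4E to the nucleus and to mRNA granules. It read 62.3 and 58.5 FPKM in WT LZ and 17.4 and 19.7 in WT PD and fell by 1.65 (SE 0.22, adjusted p = 0.000542).

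**Figure D2:**
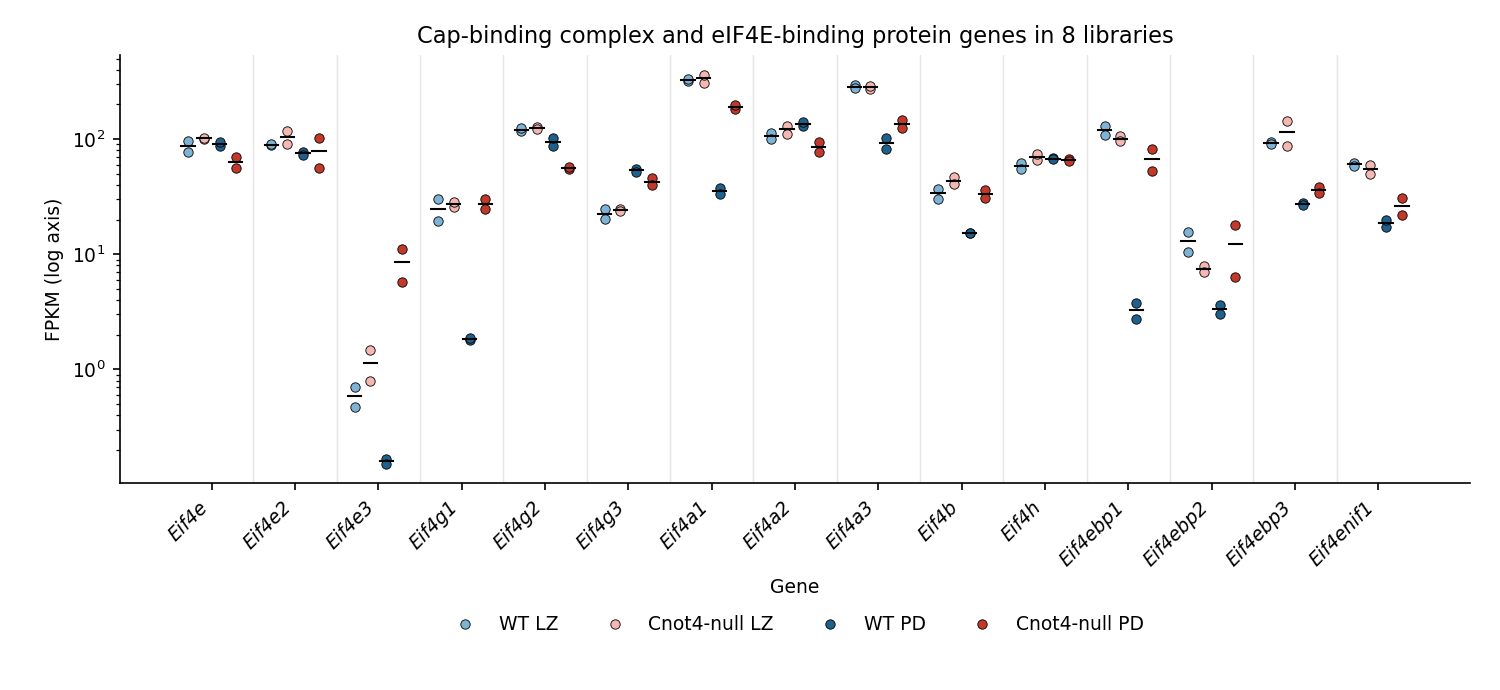
Level of each gene for the cap-binding complex and the eIF4E-binding proteins, in FPKM on a log axis, with 1 point per library coloured by genotype and stage and a bar at each group's mean. Eif4g1 reads 1.80 and 1.88 FPKM in WT PD and between 19.6 and 30.3 in the other 6 libraries, and Eif4ebp1 reads 3.79 and 2.72 in WT PD and between 53.02 and 130 in the others.

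The largest fall among the members in WT was that of an X-linked gene. Eif1ax, the X-linked gene of the scanning factor eIF1A, at chrX:155810110-155827860, read 314 and 335 FPKM in WT LZ and 4.79 and 4.71 in WT PD. Eif1a, its autosomal copy, read 30.1 and 33.4 in WT LZ and 69.5 and 70.0 in WT PD. The X-linked gene was thus low and the autosomal copy high in both PD libraries, and neither overlapped between the stages. The change of Eif1ax was -5.82 (SE 0.19, adjusted p = 1.66e-05), and that of Eif1a was 1.11 (SE 0.24, adjusted p = 0.00554). The summed FPKM of the pair was 91.2% and 90.9% Eif1ax at LZ and 6.45% and 6.31% at PD.

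The gamma subunit of eIF2, which binds GTP and the initiator tRNA, has an X-linked and a Y-linked gene in the mouse. Eif2s3y, the Y-linked gene known to be needed for spermatogonia to proliferate, read 83.0 and 106 FPKM in WT LZ and 2.46 and 3.38 in WT PD, a change of -4.61 (SE 0.24, adjusted p = 1.93e-05). Eif2s3x, the X-linked gene, read 13.9 and 17.5 in WT LZ and 3.10 and 3.43 in WT PD, a change of -1.96 (SE 0.25, adjusted p = 0.000411). Both genes were low in both PD libraries. Across the genome the 648 X-linked genes tested had a median change of -1.77 in WT and the 10 Y-linked genes one of -2.33, against -0.31 for 14544 autosomal genes.

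**Figure D3:**
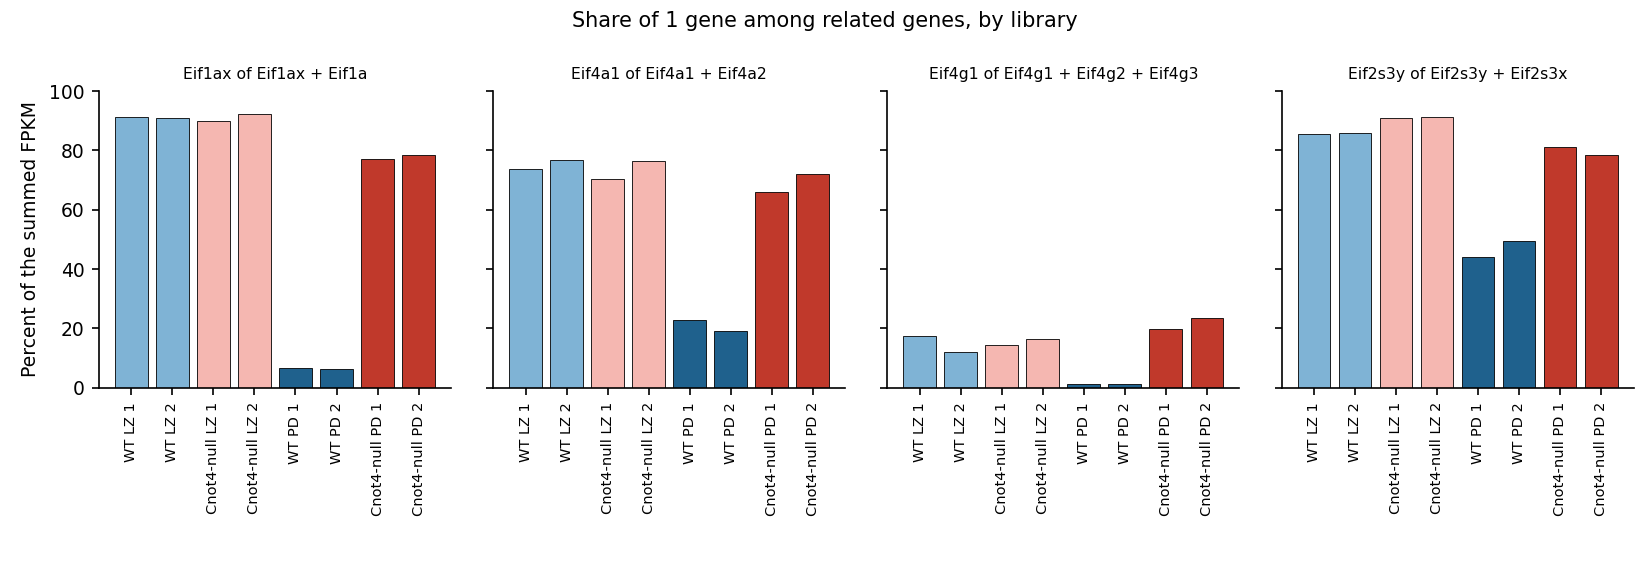
Share of 1 gene in the summed FPKM of related genes, in percent, with 1 panel per gene and 1 bar per library. Eif1ax makes up 6.45% and 6.31% of the pair Eif1ax and Eif1a in WT PD, against 77.3% and 78.4% at PD without Cnot4.

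Subunits of the other factors did not move as 1 unit. Within eIF2, Eif2s1, the alpha subunit that the stress kinases phosphorylate, read 70.1 and 96.1 FPKM in WT LZ and 114 and 117 in WT PD, a change of 0.49 that was not called (adjusted p = 0.0858). Eif2s2, the beta subunit, was not called in WT either, so among the core eIF2 subunits only the sex-linked gamma genes were called. Of the 5 eIF2B subunits tested, Eif2b3, the gamma subunit, was the 1 called. It read 87.6 and 91.8 FPKM in WT LZ and 5.32 and 4.97 in WT PD, a change of -3.88 (SE 0.21, adjusted p = 2e-05), while the other eIF2B genes changed by between -0.41 and 0.31. Of the 12 tested eIF3 subunits, which form the largest scaffold on the small ribosomal subunit, 4 were called lower (Eif3a, Eif3d, Eif3i and Eif3l) and none higher, or 33.3% beside the 36.2% of all genes. Each of the 4 calls was lost under at least 1 other scaling, and Eif3l changed sign under the same-median one. Leaving out WT LZ 1, WT LZ 2 or WT PD 2 lost those of Eif3i (-0.98, -0.92 and -0.84) and Eif3l (-0.82, -0.81 and -0.67), and leaving out WT PD 1 that of Eif3i (-1.05). Eif5b, whose GTPase joins the ribosomal subunits, fell by 1.92 and Eif6, which keeps the large subunit from joining too early, by 1.87. Eif5, the GTPase-activating protein for eIF2, changed by 0.64 and was not called, but a replicate block called it. The kinase genes Eif2ak3 (PERK) and Eif2ak4 (GCN2) were called lower, and so were the Argonaute genes Eif2c1 and Eif2c3. The call of Eif2ak4, at -1.16, was lost under all 3 other scalings and without WT LZ 2 (-0.81), WT PD 1 (-1.15) or WT PD 2 (-1.17). Eif2c3 read 6.47 and 6.20 FPKM in WT LZ and 0.483 and 0.695 in WT PD.

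**Figure D4:**
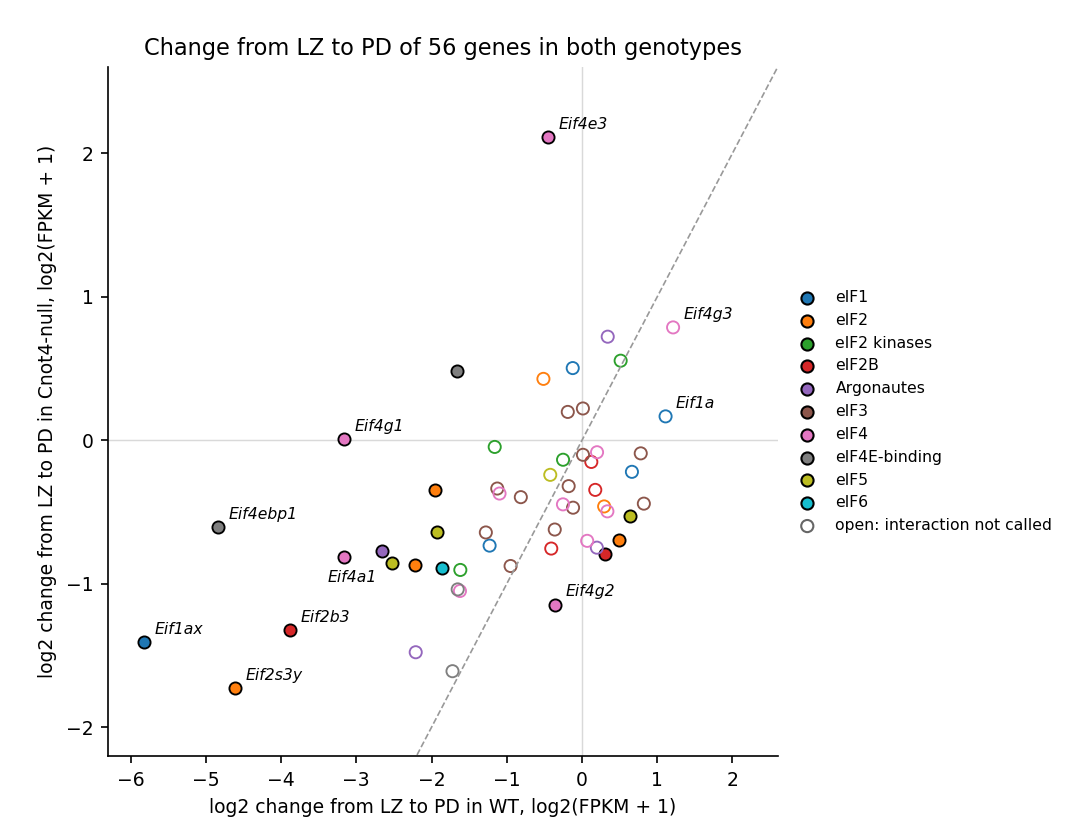
Log2 change from LZ to PD of the 56 members tested, in WT on the horizontal axis and in Cnot4-null on the vertical axis, with 1 point per gene coloured by factor, filled where the interaction was called, and a dashed line of equal change. Along the WT axis the points run from -5.82 for Eif1ax to 1.21 for Eif4g3, and in Cnot4-null from -1.73 for Eif2s3y to 2.11 for Eif4e3.

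The stage change was also measured in Cnot4-null cells. Of the 56 members, 19 were called lower at PD than at LZ, beside 18.2% of all genes, and 2 were called higher, Eif4e3 and Eif4g3, beside 27.8%. The members' median change was -0.47, against 0.19 for all genes. With quantile normalization 33 were called lower and 2 higher (31.3% and 18.7% of all genes), with median-ratio scaling 17 and 3 (16.1% and 29.1%), and with the same-median scaling 41 and 1 (32.6% and 21%). The members' median was -0.65, -0.36 and -1.05 there, against -0.30, 0.26 and -0.23. Leaving out 1 library moved the number called lower to 7 without Cnot4-null LZ 1 (9.01% of all genes), 11 without Cnot4-null LZ 2 (12.1%) and 30 without Cnot4-null PD 1 (19%), and the number called higher to 1, 1 and 6 in that order (20.2%, 18.2% and 29.8%). Called lower under every one of those scalings and without each single library were Eif1ax, Eif2s3y, Eif2b3, Eif4a3, Eif4ebp3 and Eif4g2, and Eif4e3 was called higher throughout. Of the 39 initiation factor subunits, 12 were called lower (30.8%) and 2 higher (5.13%) with the FPKM as deposited, with a median change of -0.45.

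Among the cap-binding genes in Cnot4-null cells, Eif4g1 was not called between the stages, and for Eif4ebp1 the call depended on the setting. Eif4g1 read 25.6 and 28.5 FPKM in Cnot4-null LZ and 24.6 and 30.0 in Cnot4-null PD, a change of 0.01 (SE 0.26). The PD values lay on either side of the LZ values. Eif4a1 read 310 and 363 FPKM in Cnot4-null LZ and 181 and 200 in Cnot4-null PD, a change of -0.82 (SE 0.18, adjusted p = 0.00975) that was -0.70 and not called without Cnot4-null LZ 2. Eif4ebp1 read 106 and 96.0 at LZ and 82.1 and 53.02 at PD and was not called at -0.60. It was called without Cnot4-null PD 1 (-0.92), with quantile normalization (-0.78), with the same-median scaling (-1.19) and with a replicate block (-0.60). Eif4g3, which read 24.8 and 23.7 FPKM at LZ and 45.7 and 39.6 at PD, rose by 0.79 (SE 0.19, adjusted p = 0.0135). That call was lost without Cnot4-null LZ 1 (0.82), without Cnot4-null LZ 2 (0.75) and under the same-median scaling. Eif4e3 went from 0.793 and 1.47 FPKM at LZ to 5.78 and 11.2 at PD and rose by 2.11 (SE 0.35, adjusted p = 0.00299). Eif4e went from 101 and 103 FPKM to 69.8 and 55.7, a change of -0.70 (SE 0.20, adjusted p = 0.0255) whose call was lost without Cnot4-null LZ 1 (-0.71) or Cnot4-null LZ 2 (-0.69). Eif4ebp3 fell from 142 and 87.8 FPKM to 38.2 and 33.9, by 1.61 (SE 0.25, adjusted p = 0.00231). Outside this group the Argonaute gene Eif2c3 read 7.39 and 4.75 at LZ and 1.00 and 2.11 at PD, a change of -1.48 (SE 0.32, adjusted p = 0.00915) that was -1.21 and not called without Cnot4-null LZ 1. Eif2b3, the eIF2B gamma subunit, read 104 and 76.2 FPKM at LZ and 38.0 and 32.3 at PD, a change of -1.32.

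Among the sex-linked members, Eif1ax went from 343 and 340 FPKM in Cnot4-null LZ to 148 and 111 in Cnot4-null PD, and Eif2s3y from 123 and 93.9 to 34.1 and 29.5. Both genes were lower in each PD library than in each LZ library, by -1.41 (SE 0.19, adjusted p = 0.00152) and -1.73 (SE 0.24, adjusted p = 0.00157) on the log2 scale. Eif1a, at 37.9 and 27.8 FPKM at LZ and 43.5 and 30.7 at PD, was not called. Eif2s3x read 12.3 and 8.79 at LZ and 7.93 and 8.04 at PD and was not called, at -0.34, but was called lower with quantile normalization (-0.84) and the same-median scaling (-0.86). The 648 X-linked genes had a median change of -0.35 in Cnot4-null cells, and the autosomal genes one of 0.17.

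At LZ the members were close between the genotypes, although Sertoli cell markers summed to 159 and 145 FPKM in WT and 14.9 and 18.7 in Cnot4-null. By limma 0 of 56 members were called in either direction, beside 0.0692% of all genes called higher and 0.0252% called lower in Cnot4-null. The members' median difference was 0.04, against 0.00 for all genes. At an unadjusted p below 0.05 there was 1 member, Eif2ak3, the gene of the endoplasmic reticulum stress kinase PERK. It read 2.36 and 2.13 FPKM in WT LZ and 5.27 and 5.01 in Cnot4-null LZ, so the genotypes did not overlap, but its difference of 0.92 (SE 0.30, adjusted p = 0.705) failed the correction over all genes. The naming of Eif2ak3 in that comparison followed from its value.

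At PD the genotypes differed widely, at many genes outside the family too. Of the 56 members, 21 were called higher in Cnot4-null than in WT, beside 41.6% of all genes, and 9 were called lower, beside 11.5%. The members' median difference was 0.29, below the 0.66 of all genes. With quantile normalization 16 were called higher and 9 lower (18% and 25.6% of all genes), with median-ratio scaling 14 and 19 (35.4% and 23.1%), and with the same-median scaling 9 and 38 (23.4% and 40.1%). The members' median was 0.15, -0.10 and -1.06 under these scalings, against -0.11, 0.41 and -0.21 for all genes, so it was above that of all genes with quantile normalization. Without WT PD 1 the counts were 11 higher and 3 lower (24.3% and 2.96%), without WT PD 2 they were 11 and 2 (22.9% and 2.59%), without Cnot4-null PD 1 they were 23 and 14 (44.5% and 18.1%), and without Cnot4-null PD 2 they were 19 and 5 (39.1% and 6.89%). Of the 39 initiation factor subunits, 14 were called higher (35.9%) and 8 lower (20.5%) with the FPKM as deposited, with a median difference of 0.01. The WT PD libraries serve both in the WT stage comparison and in the genotype comparison at PD, so a low or high value in them enters both.

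Through all of those scalings and left-out libraries, 7 members were called higher: Eif1ax, Eif4ebp1, Eif4g1, Eif2s3y, Eif4e3, Eif2b3 and Eif4a1. The share of all genes that passed all of these was not computed, so the number cannot be set against that of other genes. Eif4g1, the scaffold, read 24.6 and 30.0 FPKM in Cnot4-null PD against 1.80 and 1.88 in WT PD, and Eif4a1, the helicase, 181 and 200 against 38.0 and 33.5. For both genes each Cnot4-null library was above each WT library. The differences were 3.31 (SE 0.26, adjusted p = 0.000198) for Eif4g1 and 2.38 (SE 0.18, adjusted p = 0.000191) for Eif4a1, or 2.65 and 1.72 relative to the median of all genes. Their size depended on the setting, from 2.15 to 3.81 for Eif4g1 and from 0.96 to 2.47 for Eif4a1. Eif4ebp1, the inhibitor, read 82.1 and 53.02 FPKM in Cnot4-null PD and 3.79 and 2.72 in WT PD, a difference of 3.99 (SE 0.26, adjusted p = 0.000137). Its FPKM ratio to Eif4e was 1.18 and 0.952 in Cnot4-null PD against 0.0434 and 0.0286 in WT PD, and the Cnot4-null values lay within the range of the LZ libraries. The cap-binding paralog Eif4e3, at 5.78 and 11.2 FPKM against 0.166 and 0.152, differed by 2.97 (SE 0.35, adjusted p = 0.000693). For Eif4e3 the size depended on the setting, from 1.969 to 4.975. The highest value came with 0.1 instead of 1 added to the FPKM before the log. Unlike the other 6, Eif4e3 was also higher in Cnot4-null PD than in any LZ library.

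Outside the cap-binding group, Eif1ax read 148 and 111 FPKM in Cnot4-null PD against 4.79 and 4.71 in WT PD, a difference of 4.49 (SE 0.19, adjusted p = 7.33e-05). Eif2s3y read 34.1 and 29.5 against 2.46 and 3.38 and differed by 3.07 (SE 0.24, adjusted p = 0.000199), with a range from 1.84 to 3.42 over the settings. Eif2b3 read 38.0 and 32.3 against 5.32 and 4.97 and differed by 2.55 (SE 0.21, adjusted p = 0.000233). All 3 lay between the WT PD and the LZ levels. The 648 X-linked genes had a median difference of 1.95 and the 10 Y-linked genes one of 2.22, against 0.61 for the autosomal genes.

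Through the same scalings and left-out libraries 2 members were called lower in Cnot4-null, Eif2b1 and Eif2s1. Both belong to the eIF2 cycle, as do Eif2b3 and Eif2s3y, which were called higher throughout. Eif2b1, the alpha subunit of eIF2B, at chr5:125020222-125029140, read 34.8 and 24.6 FPKM in Cnot4-null PD against 72.2 and 64.7 in WT PD. Eif2s1, the alpha subunit of eIF2, at chr12:79962806-79987997, read 59.8 and 49.4 against 114 and 117. For both genes the WT PD libraries were above the Cnot4-null ones with no overlap. The differences were -1.20 (SE 0.23, adjusted p = 0.00556) for Eif2b1 and -1.07 (SE 0.21, adjusted p = 0.00556) for Eif2s1. Their size depended on the setting, from -2.60 to -0.95 for Eif2b1 and from -2.49 to -0.89 for Eif2s1.

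**Figure D5:**
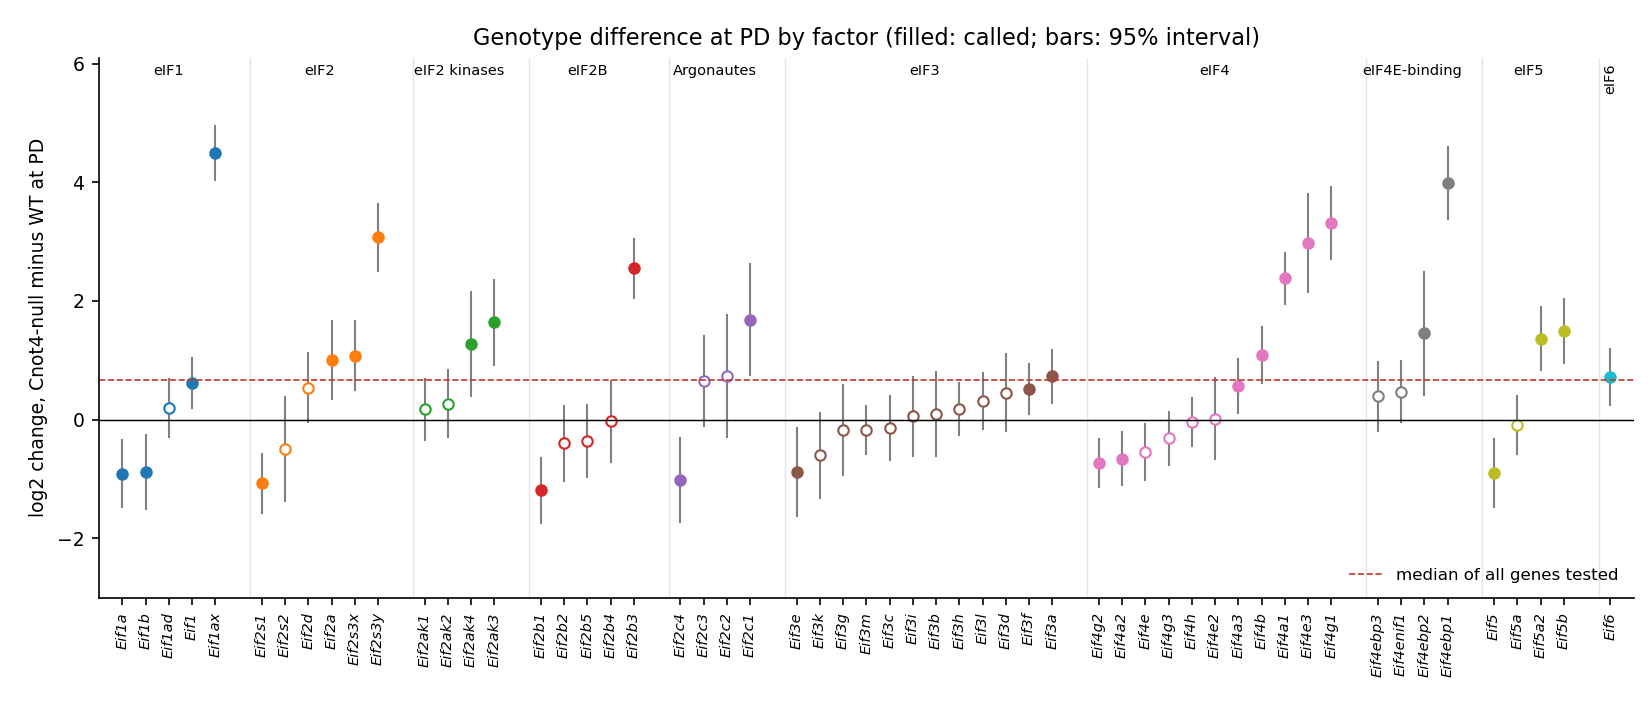
Log2 difference between Cnot4-null and WT at PD for the members tested, by factor, with 1 point per gene, filled where called, bars for the 95% interval from limma and a dashed line at the median of all genes. The differences run from -1.20 for Eif2b1 to 4.49 for Eif1ax around an all-gene median of 0.66.

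The other cap-binding genes were less steady at PD. Eif4g2, at 54.7 and 57.3 FPKM in Cnot4-null PD against 86.7 and 101 in WT PD, differed by -0.73 (SE 0.17, adjusted p = 0.011), a call lost with quantile normalization and without WT PD 2, at -0.62. Eif4a2, at 93.6 and 77.9 against 129 and 142, differed by -0.66 (SE 0.19, adjusted p = 0.0249), a call lost with quantile normalization and without WT PD 1 (-0.73), WT PD 2 (-0.59) or Cnot4-null PD 2 (-0.53). In both genes all Cnot4-null libraries were below all WT libraries. Eif4e, at 69.8 and 55.7 against 87.3 and 95.1, differed by -0.54 (SE 0.20, adjusted p = 0.055) and was not called, although it was without Cnot4-null PD 1, at -0.70, and under 2 of the scalings. Eif4g3, at 45.7 and 39.6 against 55.4 and 51.3, was not called, at -0.32, but was under the same-median (-1.73) and median-ratio (-0.77) scalings. Eif4b, at 36.0 and 31.0 against 15.2 in both, was called higher at 1.09 (SE 0.20, adjusted p = 0.00404), but had a difference of -0.29 under the same-median scaling.

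Several further calls at PD turned with the scaling or a library. Eif4a3, at 147 and 125 FPKM in Cnot4-null PD against 102 and 81.7 in WT PD, was called higher at 0.56 but called lower, at -0.86, under the same-median scaling. Its call was lost with median-ratio scaling, at 0.11, and without WT PD 1 (0.72), WT PD 2 (0.40) or Cnot4-null PD 1 (0.45). Eif4ebp2, at 6.37 and 18.04 against 3.64 and 3.04, was called higher at 1.45, a call lost under the 3 other scalings and without WT PD 1 (1.55), WT PD 2 (1.35) or Cnot4-null PD 2 (0.77). The pair of Cnot4-null values for Eif4ebp2 lay far apart. Eif4e2, Eif4ebp3 and Eif4enif1 were not called, and each turned negative under the same-median scaling, at -1.41, -1.01 and -0.91. Eif4enif1 read 22.0 and 30.8 FPKM against 17.4 and 19.7 and was called without Cnot4-null PD 1, at 0.71. Eif2s3x, at 7.93 and 8.04 against 3.10 and 3.43, was called higher at 1.07 but turned to -0.12 with quantile normalization and -0.13 under the same-median scaling, and the call was lost without WT PD 1 (1.02) or WT PD 2 (1.13).

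By factor, 2 of 5 eIF1 genes, 3 of 6 eIF2 genes, 1 of 5 eIF2B genes, 2 of 12 eIF3 genes, 5 of 11 eIF4 genes and 2 of 4 genes of the eIF5 group were called higher at PD in Cnot4-null, together with Eif6, 2 of 4 genes for eIF4E-binding proteins, 2 of 4 eIF2 kinase genes and 1 of 4 Argonaute genes. Called lower were 2, 1, 1, 1, 2 and 1 genes of the first 6 of these groups, and 1 Argonaute gene, Eif2c4. Over all genes the shares were 41.6% higher and 11.5% lower. The eIF1 group held Eif1ad, and the eIF2 group held Eif2a and Eif2d, which are not subunits of these factors. The eIF2 genes called higher were Eif2a, Eif2s3x and Eif2s3y. Eif5, the partner of eIF2, read 187 and 123 FPKM against 287 and 279 and was called lower at -0.89, a call lost without WT PD 1 (-0.88) or WT PD 2 (-0.91). Eif1a, the autosomal eIF1A gene, at 43.5 and 30.7 against 69.5 and 70.0, was called lower at -0.91, and lost the call without WT PD 1 (-0.92), WT PD 2 (-0.91) or Cnot4-null PD 2 (-0.67). Eif2c4, at 3.63 and 2.69 against 8.41 and 6.44, differed by -1.02 and lost the call without WT PD 1 (-0.85), WT PD 2 (-1.19) or Cnot4-null PD 2 (-0.85). Eif5b, at 56.8 and 53.5 against 20.1 and 18.01, was called higher at 1.49 (SE 0.23, adjusted p = 0.00212), a call lost under the same-median scaling, at 0.10. Of the 21 members called higher, 8 changed sign under the same-median scaling and 2 with quantile normalization, and the genes concerned were Eif1, Eif2a, Eif2ak4, Eif2s3x, Eif3a, Eif3f, Eif4a3, Eif4b and Eif6.

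The genotype difference was compared between the stages with an interaction term. It was larger at PD for 14 of the 56 members, beside 26% of all genes, and smaller or more negative for 4 (Eif2b1, Eif2s1, Eif4g2 and Eif5), beside 3.97%. The members' median was 0.29, against 0.64 for all genes. With quantile normalization 9 and 6 members were called (9.66% and 12.1% of all genes), with median-ratio scaling 9 and 13 (22% and 11.5%), and with the same-median scaling 7 and 32 (13.7% and 32.3%). The members' median was 0.22, -0.14 and -1.07 there, against -0.13, 0.40 and -0.30 for all genes. Without 1 library the number larger at PD was 9 (WT LZ 1), 10 (WT LZ 2), 9 (Cnot4-null LZ 1), 8 (Cnot4-null LZ 2), 6 (WT PD 1), 7 (WT PD 2), 19 (Cnot4-null PD 1) and 17 (Cnot4-null PD 2), and the number smaller was 0, 1, 0, 0, 0, 0, 13 and 3 in that order. The all-gene shares in that order were 15.2%, 18.2%, 16.1%, 13.3%, 10.7%, 10.1%, 36.8% and 29.1% larger, and 0.981%, 1.64%, 0.899%, 1.19%, 0.453%, 0.333%, 13% and 4.13% smaller. Eif1ax, Eif2b3, Eif2s3y, Eif4a1, Eif4ebp1 and Eif4g1 were called in every one of these fits. The stage changes of Eif4g1 and Eif4a1 thus differed between the genotypes, by 3.17 (SE 0.36, adjusted p = 0.00199) and 2.35 (SE 0.26, adjusted p = 0.0018). Over the settings these values ranged from 1.96 to 3.66 and from 0.89 to 2.46. For Eif4g3, the paralog that rose in both genotypes, the term was -0.42 and not called, and it was called under 2 of the scalings. Of the 39 initiation factor subunits, 9 were larger (23.1%) and 4 smaller (10.3%) at PD with the FPKM as deposited, with a median of -0.14.

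CNOT4 carries an RNA recognition motif, and the study names GACAGA as the sequence that this motif recognises, so the 3′UTRs of the members were searched for these letters on the transcript's own strand. Of the 47 members passing the filter with a 3′UTR of at least 100 nt in their longest coding transcript, 23 (48.9%) held the letters, against 4195 of 12944 (32.4%) of all kept genes with such a 3′UTR. The share was 8 of 20 (40%) for members called higher at PD in Cnot4-null and 5 of 9 (55.6%) for members called lower, the latter equal to the 10 of 18 (55.6%) for members not called, while for all genes it was 33.1% and 30.1%. The density was 0.635 per kb of 3′UTR in the members and 0.386 in all kept genes, but 0.441 without the 2 members with the most matches, Eif2ak2 and Eif2c2. Among members called higher, called lower and not called at PD it was 0.418, 0.421 and 0.914, and the last was 0.479 without these 2 genes, both not called. The members' 3′UTRs had a median length of 977 nt against 880. Of the 7 members called higher throughout at PD, Eif4g1, Eif4a1, Eif4ebp1 and Eif2b3 held none. Eif2s3y, without a coding transcript in the annotation, was not searched. The study reports that the letters were not enriched among transcripts cleared through CNOT4. A match is a description of letters, not a site or a cause. The windows below, of 30 bases each on mm9 and within annotated 3′UTRs, are those of Eif1ax, Eif4e3 and both members lower throughout at PD, with the matched letters in capitals. They lie at chrX:155823748-155823777 and chrX:155827040-155827069 (plus strand), chr6:99575300-99575329 (minus strand), chr5:125020620-125020649 (minus strand) and chr12:79987702-79987731 (plus strand).
Eif1ax, first: gttctattttgaGACAGAgtctaactttgt
Eif1ax, second: aggttcttgagaGACAGAcagtgtgctaga
Eif4e3: gtatttttttctGACAGAttagcacaaagg
Eif2b1: cctctctaagttGACAGAtcagaaacagtg
Eif2s1: agataattcagaGACAGAatacacatattt

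Several members have near copies in the genome, and the authors counted uniquely mapped reads of 50 bases. Eif2s3y has no coding transcript in the annotation and was not computed. Of the 57 other members, 18 had more than 10% of their 50-base stretches matched exactly elsewhere and 4 had more than 50%: Eif2s3x (93.2%), Eif3j (83.2%), Eif4a1 (80.3%) and Eif1 (58.1%). Eif4a2 and Eif4e stood at 40.3% and 36.8%. In contrast Eif4g1 (1.16%), Eif4g3 (1.05%), Eif1ax (0.254%), Eif1a (4.88%), Eif4ebp1 (7.62%), Eif4e3 (1.95%) and Eif2b3 (1.73%) were nearly free of such stretches. The part of these copies in the levels was not tested.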

How the data were processed

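Per the study's methods and the labels, the authors mapped reads trimmed to 50 bases to mm9 with TopHat2 2.1.1, and the FPKM that they deposited came from Cufflinks 2.2.1. The methods describe Smart-Seq2 libraries of sorted cells while the labels describe Trizol extraction and TruSeq, and which was used was not determined. The files hold no counts, and read totals that the study states elsewhere were not used. Genes above 1 FPKM in at least 1 library were kept, and log2(FPKM + 1) was fitted with limma 3.58.1 (R 4.3.3; trend, 4 residual degrees of freedom) on 4 group means, with 5 contrasts and Benjamini-Hochberg adjustment over all kept genes. The method was tested on simulated data. An exact permutation test of 2 against 2 libraries cannot go below p = 0.333.

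Alternatives were a pseudocount of 0.1, no filter, a mean of at least 5 FPKM, quantile normalization, the same median in each library, only the libraries compared, a replicate block, median-ratio scaling and leaving out each library. Members and lists were chosen with earlier results of these data known. Named with values were each cap-binding gene, the sex-linked members with their autosomal copy, and in each contrast the 5 largest called rises and falls without overlap. Transcripts came from GENCODE on mm9. Further tools were numba 0.67.0, matplotlib 3.10.9, scipy 1.17.1, pandas 2.3.3 and numpy 2.4.6 under Python 3.11.15. The deviations of same-numbered libraries had correlations between -0.0651 and 0.194 across genes, the highest for Cnot4-null LZ and Cnot4-null PD. With 2 libraries in a group, these values cannot show whether the numbers pair the libraries.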

Additional observations from a re-analysis of the deposited data

Results flagged for a closer look

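For 13 named members the difference between the genotypes was not the same at both stages by the interaction test in limma. Some of them were named because this value was among the largest. Of all 56 members 18 were called, 14 larger and 4 smaller at PD, beside 26% and 3.97% of all genes. The difference at PD minus that at LZ was 4.42 on the log2 scale for Eif1ax, 4.23 for Eif4ebp1, 3.17 for Eif4g1, 2.88 for Eif2s3y, 2.56 for Eif2b3, 2.56 for Eif4e3, 2.35 for Eif4a1, 2.15 for Eif4ebp2 and 1.62 for Eif2s3x. It was -0.78 for Eif4g2, -1.1 for Eif2b1, -1.16 for Eif5 and -1.18 for Eif2s1. For Eif4ebp2, Eif2s3x, Eif4e3 and the last 4 genes the call was lost under at least 1 other scaling, filter or left-out library.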

How the results depend on the processing

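Over the named members, 1131 of 1335 values kept their sign and side of the threshold, 104 lost a call, 50 gained one, 10 changed sign with a call before or after, and 40 changed sign without one. For the named members a pseudocount of 0.1 changed no sign or call, but it enlarged the values of Eif4e3, which was near or below 1 FPKM in most libraries. These became -1.38 in the WT stage change, 4.975 in the genotype difference at PD and 4.17 in the interaction. Over all members it took the Cnot4-null stage falls from 19 to 18 (16.6% of all genes). It took the number larger in the interaction from 14 to 15 (28.6%). At LZ every setting left 0 members called. Under the same-median scaling the numbers called were 24 higher for the WT stage change (32.5% of all genes), 1 higher and 41 lower for the Cnot4-null stage change (21% and 32.6%), 9 higher and 38 lower for the genotype difference at PD (23.4% and 40.1%), and 7 larger and 32 smaller for the interaction (13.7% and 32.3%). Signs changed there, with a call before or after, for Eif4g2 in the WT stage change (0.52), for Eif4a3 (-0.86), Eif4b (-0.29), Eif4e2 (-1.41), Eif4ebp3 (-1.01), Eif4enif1 (-0.91) and Eif2s3x (-0.13) in the genotype difference at PD, and for Eif4a3 (-0.90) and Eif4ebp3 (-1.33) in the interaction. Of these, Eif4b and Eif2s3x were called only before the change of scaling. With quantile normalization Eif2s3x stood at -0.12 at PD and was not called. Quantile normalization called 33 lower in the Cnot4-null stage change (31.3%) and 9 larger in the interaction (9.66%). Median-ratio scaling, chosen after seeing the data, called 14 higher in the WT stage change (27.9%), 19 lower at PD (23.1%), and 9 and 13 in the interaction (22% and 11.5%). With only the libraries compared, 8 were higher in WT (24.4%), 1 higher and 6 lower in Cnot4-null (16.9% and 7.94%), and 13 and 3 at PD (32.6% and 5.67%), and no filter left 2 smaller in the interaction (1.69%). The replicate block called 4 higher in WT (21.5%), took the Cnot4-null stage falls from 19 to 20 (17.6%), with 2 lost and 3 gained, and the interaction from 14 larger to 11 (23.7%). The cause was not tested.

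Leaving out 1 library gave ranges of 1 to 6 higher (18.2% to 32.3% of all genes) and 7 to 30 lower (9.01% to 20.1%) in the Cnot4-null stage change, 11 to 23 higher (22.9% to 44.5%) and 2 to 14 lower (2.59% to 18.1%) at PD, and 6 to 19 (10.1% to 36.8%) and 0 to 13 (0.333% to 13%) in the interaction. A lone remaining library was assumed to vary like the other groups. The interaction has no value with only the libraries compared, and Eif4e3 and Eif2c3 have none with a mean of at least 5 FPKM. With 2 libraries in a group, small differences cannot be told from the spread between libraries.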

Other observations

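Genes that act beside the initiation factors were described from lists of their own. As a base for these lists, over all genes 21.6% were called higher and 36.2% lower at PD in WT, 27.8% and 18.2% in Cnot4-null, and 41.6% and 11.5% by genotype at PD. Of 18 initiation proteins without the Eif name, 5 were called higher and 9 lower at PD in the WT stage change, 4 and 5 in the Cnot4-null one, and 8 and 3 in the genotype difference at PD. Their median at PD was 0.33, against 0.66 for all genes. D1Pas1, a germ cell copy of the X-linked helicase gene Ddx3x, read 11.2 and 15.02 FPKM in WT LZ and 80.7 and 94.3 in WT PD, against 34.7 and 24.9 for PD cells without Cnot4. Ddx3x went the other way, at 7.27 and 4.75, then 0.704 and 0.510, then 12.1 and 34.3 FPKM in the same groups. In WT PD the copy was thus high and its X-linked source low, and the genotype difference at PD was -1.54 (adjusted p = 0.00218) for D1Pas1 and 3.74 (adjusted p = 0.000838) for Ddx3x. Mcts1, an X-linked gene for a reinitiation factor, read 0.191 and 0 FPKM at PD in WT against 18.01 and 19.7 in Cnot4-null, while its autosomal copy Mcts2 read 122 and 116 against 146 and 61.4. Pabpc1, the poly(A)-binding protein that contacts eIF4G, rose in WT by 2.41 and in Cnot4-null by 1.27.

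Of 13 genes of mTOR and MNK signalling to eIF4E, 1 was called higher and 10 lower at PD in WT, 0 and 5 in Cnot4-null, and 8 and 0 by genotype at PD, where their median was 1.09 against the 0.66 of all genes. Mknk2, a kinase of eIF4E, read 39.9 and 37.0 FPKM in WT LZ and 7.2 and 8.64 in WT PD, against 21.0 and 33.7 for PD cells without Cnot4. Of 13 genes for eIF2 phosphatase subunits and targets of the integrated stress response, 3 were called higher and 7 lower in WT, 3 and 3 in Cnot4-null, and 8 and 3 by genotype at PD. Ppp1ca, a catalytic phosphatase subunit, read 222 and 247 FPKM in WT LZ and 2.98 and 1.32 in WT PD, against 75.0 and 67.0 for PD cells without Cnot4. Its paralog Ppp1cc read 252 and 215, then 514 and 548, then 349 and 215 in these groups. Of 8 elongation factor genes 0 and 5 were called in WT, 0 and 1 in Cnot4-null and 3 and 0 at PD, and of 6 genes for termination and recycling 0 and 4, 0 and 3, and 2 and 0. By limma no gene of these 5 lists was called between the genotypes at LZ.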
